A study of Mus musculus with 8 samples.

Results

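The genes described here are 10 members of the cytokine feedback circuit: the suppressors of cytokine signalling Socs1, Socs2, Socs3 and Socs5, their relative Cish, the transcription factors Stat3, Stat5a, Stat5b and Stat6, and the kinase gene Pim1. They were taken by name from a table with 1 value per gene and array, and all 10 were found among its 16419 genes, each under its current mouse symbol. The values are on a scale taken as log2, on which 1 unit is a doubling. They come from leukemia cells of 8 mice, each hybridised to its own Mouse Exon 1.0 ST array (Affymetrix). In the 4 TCL1 mice the leukemia arose with a TCL1 transgene alone. This is an oncogene which, per the series title, was driven by the Eµ enhancer of the immunoglobulin heavy chain locus, active in B cells. The 4 ROR1xTCL1 mice carried the same TCL1 transgene and a second transgene for ROR1, a surface receptor for Wnt5a. The promoter of the ROR1 transgene, the strain, age and organ of origin are not given in the sources used here. The arrays of each group are called a to d in this table, since its column names show the genotype but not the sample number.

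Cytokines bind receptors whose cytoplasmic tails hold Janus kinases (JAKs). The JAKs phosphorylate STAT proteins, which pair, enter the nucleus and switch on target genes. Among those targets are the SOCS genes and Cish, whose products bind the receptors or the JAKs through an SH2 domain and recruit a ubiquitin ligase through their SOCS box, and Pim1, a serine/threonine kinase that favours survival. In B cells, STAT6 transmits interleukin 4 signals, STAT5A and STAT5B those of cytokines such as interleukin 7 and interleukin 2, and STAT3 those of interleukins 6, 10 and 21.

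STAT dimers bind the palindrome TTCNNNGAA, and STAT6 also binds the form with 1 more N in the middle. Both motifs were searched on both strands in RefSeq windows (GRCm38.p6) from 250 bases before to 50 bases after an annotated gene start. 8 of the 10 members had a window, with 11 windows in all, and 2 of these held a motif. TTCNNNGAA was found in 8.30% of all 32851 windows and the longer form in 6.95%. The stretches of Cish and Socs3 are shown because they were the only member windows with a match, with the motif in capitals, 5′ to 3′ on the gene's strand.
Cish, chr9:107296656-107296685, plus strand: gttTTCCTGGAAagTTCTTGGAAatctgtc
Socs3, chr11:117969494-117969523, minus strand: gccTTCTTAGAAgggaggggggggaaagtg
The Cish stretch began 3 bases before the annotated start and held 2 copies of TTCNNNGAA, a number reached in 0.457% of all windows. A match of letters is not evidence of binding, and Socs2 and Socs5 had no window.

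The labels were checked first. Ror1 read 3.67 to 4.03 on the TCL1 arrays and 4.07 to 4.85 on the ROR1xTCL1 arrays, with no overlap. Groups without overlap were seen for 1.10% of all genes. The Ror1 difference of 0.64 ± 0.18 (SE) did not pass adjustment over all genes, and its values lay below the array medians (5.03 to 5.09). Mouse probes need not read all of the transgene. All 11 B cell markers, which include Cd79a, Cd79b and Pax5, lay above the array median on all 8 arrays, and their mean level, each gene centred over the 8 arrays (the marker score), spanned -0.09 to 0.09 in TCL1 and -0.11 to 0.14 in ROR1xTCL1. Scores of other cell types varied more. The neutrophil score (14 of 15 genes measured) spanned -1.14 to 2.66 in TCL1 and -0.72 to -0.19 in ROR1xTCL1, and the erythroid score (7 of 9 genes measured) -0.62 to 0.65 and -1.06 to 1.91. These are bulk samples, so fewer cells of a type and less RNA per cell cannot be told apart. The Y-linked gene Ddx3y read 7.29, 7.70 and 8.15 on 3 arrays (c of TCL1, c and d of ROR1xTCL1) and 2.42 to 2.88 on the others.

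All 10 members lay above the first quartile of genes on all 8 arrays. None differed between ROR1xTCL1 and TCL1 leukemias past the threshold of an adjusted p under 0.05 (limma, Benjamini-Hochberg over all genes). The background was 0% of the 16419 genes. At an unadjusted p under 0.05 stood 1 member, Socs1, where 1.63% of all genes did (1.14% of all genes lower in ROR1xTCL1, as Socs1 was). No member had groups without overlap, where 1.10% of all genes did (0.737% lower and 0.359% higher in ROR1xTCL1). 5 members averaged higher and 5 lower in ROR1xTCL1, with a median difference of 0.04 against -0.01 over all genes. The half-width of the unadjusted 95% interval of a member's difference ranged from 0.19 for Stat3 to 1.39 for Socs2. Differences smaller than this cannot be told from 0 with 4 arrays per group, even before adjustment. The adjusted threshold asks for larger differences: the interval of Socs1 left out 0, and Socs1 did not pass.

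**Figure D1:**
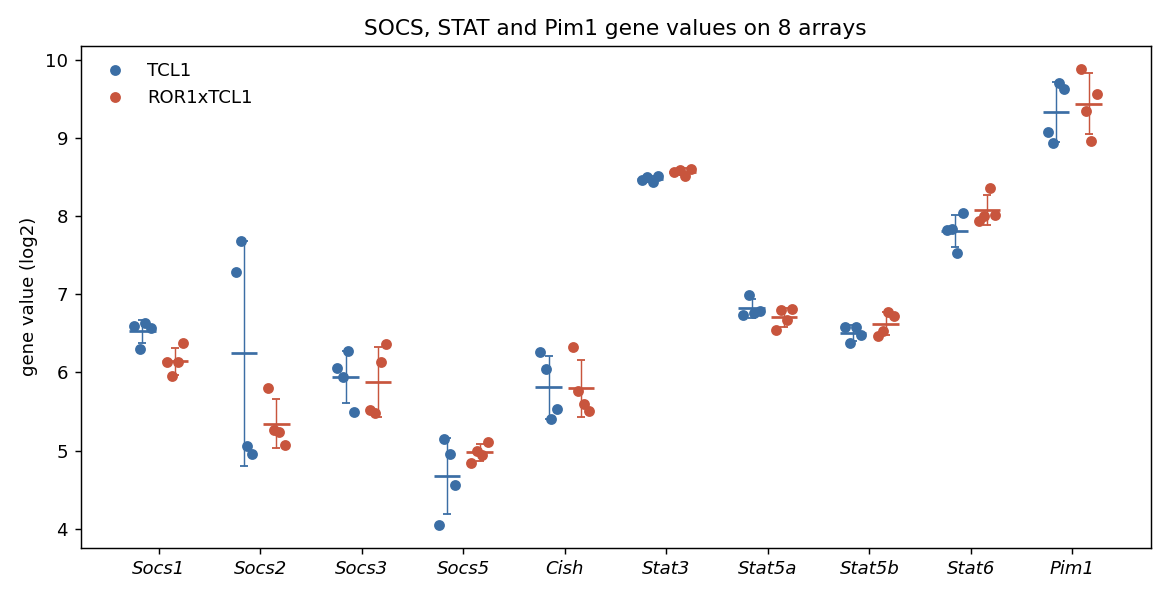
Log2 gene values of the 10 members (x axis) on the 4 TCL1 arrays (blue) and the 4 ROR1xTCL1 arrays (red), each point 1 mouse, with the group mean and SD (n = 4). Socs2 stood high on 2 TCL1 arrays, at 7.29 and 7.69, and the groups overlapped for every member; heights of different genes are not comparable because their probes differ.

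Socs1, which blocks JAK activity after interferon and interleukin 4 signals, had the smallest p of the members and lay lower in ROR1xTCL1. It read 6.60, 6.31, 6.63 and 6.57 on TCL1 arrays a to d and 6.13, 5.96, 6.13 and 6.38 on ROR1xTCL1 arrays a to d. Thus 3 of the 4 ROR1xTCL1 arrays lay below every TCL1 array, and only ROR1xTCL1 array d passed TCL1 array b. The group means were 6.53 ± 0.15 and 6.15 ± 0.17 (SD, n = 4 each). The difference of -0.38 ± 0.13 (SE), with a 95% interval of -0.66 to -0.10, amounts to 1.30-fold more in TCL1. The unadjusted limma p was 0.0144, rank 56 among all genes, with an adjusted p of 1.0, and the exact 2-sided permutation test over the 70 orderings gave p = 0.0571. The smallest p this design allows in that test is 0.0286.

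The probe sets of Socs1, each reading a short stretch of the transcript, gave differences on both sides of the gene value. Averaged over the 7 probe sets annotated to the gene, Socs1 differed by -0.22 ± 0.11 (SE) and no longer reached an unadjusted p under 0.05, while by their median it differed by -0.47 and did. Of the 7, 5 lay lower on average in ROR1xTCL1. Probe set 4481394 differed most, at 6.42 ± 0.46 in TCL1 and 5.84 ± 0.38 in ROR1xTCL1 (SD, n = 4 each), with overlap between the groups. Probe sets 4922200 and 4525868 differed by -0.39 ± 0.26 and -0.37 ± 0.26 (SE). Probe set 5313931 differed by 0.17 ± 0.25 (SE), in the other direction.

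Socs2, which dampens growth hormone and other STAT5 signals, varied most from leukemia to leukemia. It read 7.29, 7.69, 5.05 and 4.96 on TCL1 arrays a to d and 5.80, 5.27, 5.23 and 5.07 on ROR1xTCL1 arrays a to d. TCL1 arrays a and b therefore stood apart from the other 6 arrays, with a gap of 1.49 log2 units (2.81-fold) and no value between. The SD within groups was 1.05, larger than that of 99.0% of all genes. The group means of 6.25 ± 1.44 and 5.34 ± 0.32 (SD, n = 4 each) differed by -0.90 ± 0.61 (SE), with an interval of -2.29 to 0.48 (unadjusted limma p = 0.175, exact permutation p = 0.429). Without TCL1 array b it was -0.42 and without TCL1 array d -1.33. The largest mean difference among the members thus rested on 2 of 4 TCL1 leukemias, while TCL1 arrays c and d lay below all 4 ROR1xTCL1 arrays.

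A similar split appeared in the probe set table, a second reading of the same 8 arrays, whose columns carry the replicate numbers of the labels. In 6 of the 21 Socs2 probe sets, TCL1 replicates 1 and 2 both lay above the other 6 samples. Probe set 4577493 read 8.03 and 7.96 on these 2 and 5.02 to 6.70 on the others. Probe set 4868245 read 7.37 and 7.67 against 4.75 to 5.88, and 5195324 read 6.79 and 7.18 against 4.56 to 5.85. The remaining 15 probe sets did not show it. Of the 11 probe sets above the first quartile on every array, 4 showed it. The other 10 of the 21 were not above it on every array. Averaged over all 21, Socs2 differed by -0.25 ± 0.24 (SE) between the groups, a smaller difference than in the gene table. No label ties an array letter to a replicate number.

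Cish, which competes with STAT5 at activated receptors and is a classical STAT5 target, followed a related order without a group difference. It read 6.26, 6.05, 5.40 and 5.53 on TCL1 arrays a to d and 6.32, 5.77, 5.59 and 5.51 on ROR1xTCL1 arrays a to d. ROR1xTCL1 array a was the highest, next to TCL1 arrays a and b, the 2 arrays with high Socs2. The means of 5.81 ± 0.41 and 5.80 ± 0.37 (SD, n = 4 each) differed by -0.01 ± 0.24 (SE), with an interval of -0.55 to 0.53. The spread within groups, 0.39, exceeded that of 82.7% of all genes.

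Because Socs2 values fell into 2 sets, its relation to Cish was computed within the 6 arrays of low Socs2. Over all 8 arrays, with the sets pooled, Pearson's r was 0.74 (exact permutation p = 0.0403, adjusted p = 0.927). Within the 6 arrays r was 0.96 (exact permutation p = 0.0125) and Spearman's rho 0.83 (exact permutation p = 0.0583, n = 6). The 45 pairs of members were computed, and neither value passed after adjustment over them (adjusted p = 0.25 and 0.65). With the 2 arrays farthest from the first gene's median left out, 3 of the 45 pairs had an unadjusted exact permutation p under 0.05. The others were Socs5 with Stat5a, at r = 0.92 against 0.29 over all 8 arrays, and Socs3 with Cish, at r = -0.83 against -0.36. Their adjusted p was also 0.25, and by Spearman's rho, at 1.0 and -0.89, it was 0.125 and 0.5 (exact permutation). With values averaged from probe sets, over all 8 samples, r was -0.36 for Socs5 with Stat5a, the opposite sign. It was -0.25 for Socs3 with Cish and 0.86 for Socs2 with Cish (adjusted p = 0.987 and 0.273, exact permutation). Within the 6 arrays of low Socs2, ROR1xTCL1 array a was the highest for both Socs2 and Cish, at 5.80 and 6.32. The other 5 lay at 4.96 to 5.27 for Socs2 and 5.40 to 5.77 for Cish.

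The 3 arrays highest in Cish were also the 3 highest in the erythroid score, at 1.91 on ROR1xTCL1 array a and 0.65 and 0.57 on TCL1 arrays a and b, against -1.06 to -0.05 on the other 5. All 7 measured erythroid markers lay above the array median on all 8 arrays. Epor, the erythropoietin receptor gene, named here after its values were seen, read 6.74 on ROR1xTCL1 array a and 4.86 to 5.40 on the other 7. The part of erythroid cells in the Cish and Socs2 values was not tested. Il2ra, the interleukin 2 receptor alpha chain and a known STAT5 target, read 6.41 and 7.27 on TCL1 arrays a and b, where Socs2 was high, but 4.55 on ROR1xTCL1 array a and 4.70 to 6.02 on the other 5. On ROR1xTCL1 array a, Cish was thus at its highest and Il2ra at its lowest. The T cell score was 0.75 and -0.06 on TCL1 arrays a and b and -0.60 on ROR1xTCL1 array a, and the part of T cells in these values was not tested.

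**Figure D2:**
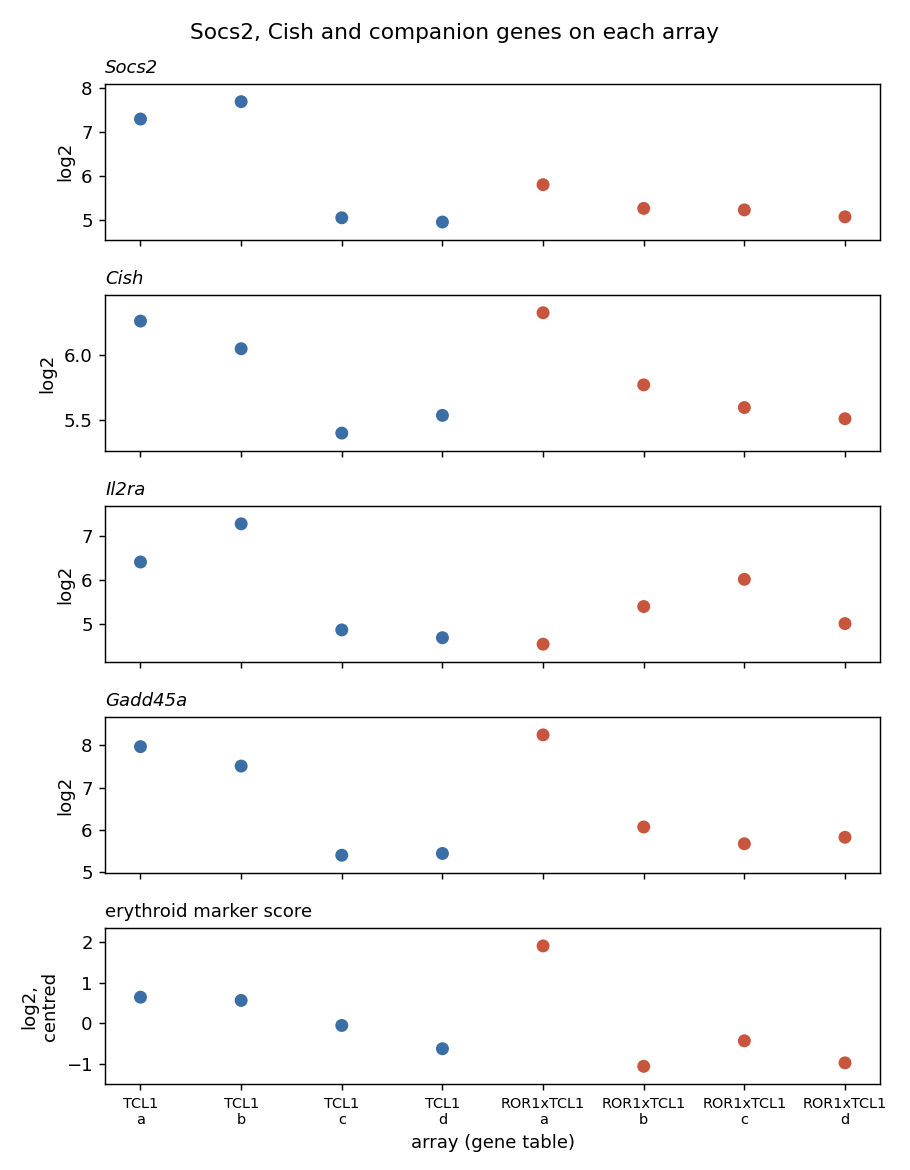
Log2 gene values of Socs2, Cish, Il2ra and Gadd45a and the erythroid marker score (mean log2 value of 7 genes, each centred on its mean over the 8 arrays) on each array of the gene table, with TCL1 in blue and ROR1xTCL1 in red. TCL1 arrays a and b were high in all 5 panels, while ROR1xTCL1 array a was highest in Cish, Gadd45a and the erythroid score and lowest in Il2ra at 4.55; y axes differ between panels and do not start at 0.

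Socs3, the feedback inhibitor of interleukin 6 type receptors and of the G-CSF receptor, varied as much within groups as Cish and did not follow it. It read 6.05, 5.95, 6.28 and 5.49 on TCL1 arrays a to d and 5.52, 5.48, 6.14 and 6.37 on ROR1xTCL1 arrays a to d. The means of 5.94 ± 0.33 and 5.88 ± 0.45 (SD, n = 4 each) differed by -0.07 ± 0.24 (SE), with an interval of -0.62 to 0.48. The 3 arrays with the highest Socs3 were the 3 with high Ddx3y. The neutrophil score on these 3 was 1.24 in TCL1 and -0.72 and -0.58 in ROR1xTCL1, and on TCL1 array a, where it was highest at 2.66, Socs3 read 6.05, next below them. The part of sex or neutrophils in the Socs3 values was not tested.

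Socs5, reported to restrain interleukin 4 receptor and epidermal growth factor receptor signals, spread less in ROR1xTCL1 than in TCL1 in the gene table. This difference in spread was not tested. In that table Socs5 read 4.05, 5.15, 4.95 and 4.56 on TCL1 arrays a to d and 4.84, 5.0, 4.95 and 5.11 on ROR1xTCL1 arrays a to d. The ROR1xTCL1 values lay within the TCL1 range, and TCL1 arrays a and d lay below all of them. The difference was 0.30 ± 0.22 (SE), from 4.67 ± 0.49 to 4.98 ± 0.11 (SD, n = 4 each), with an interval of -0.20 to 0.80. It was 0.09 without TCL1 array a, 0.46 without TCL1 array b, and 0.51 by the median of its probe sets, which reached an unadjusted p under 0.05. Its probe set 5285927 read 4.56 to 6.08 in TCL1 and 6.36 to 7.75 in ROR1xTCL1 with no overlap, a difference of 1.26 ± 0.41 (SE) that did not pass adjustment over all probe sets. The other 9 probe sets of Socs5 differed by -0.39 to 0.69. Averaged over its probe sets, Socs5 read 4.77 to 5.19 in TCL1 and 5.01 to 5.39 in ROR1xTCL1. The contrast in spread of the gene table was thus not seen in these averages.

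Stat6, the factor of interleukin 4 and interleukin 13 signals, had the second smallest p of the members and lay higher in ROR1xTCL1. It read 7.83, 7.83, 7.54 and 8.04 on TCL1 arrays a to d and 7.94, 8.001, 8.37 and 8.02 on ROR1xTCL1 arrays a to d. TCL1 array d lay above all ROR1xTCL1 arrays but c, so the groups overlapped. The means of 7.81 ± 0.21 and 8.08 ± 0.19 (SD, n = 4 each) differed by 0.27 ± 0.14 (SE), with an interval of -0.05 to 0.60 (unadjusted limma p = 0.0905, exact permutation p = 0.114).

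The 25 Stat6 probe sets were nearly all on the same side. 24 of them averaged higher in ROR1xTCL1, and the median difference was 0.25. Of the 5448 genes with at least 20 probe sets, 1.17% were as one-sided. Probe sets of a gene share the same 8 RNA samples, so this share describes how evenly the gene was read and adds no replicates. Probe set 4554387 read 8.13 ± 0.16 in TCL1 and 8.58 ± 0.17 in ROR1xTCL1, and 5134198 read 9.82 ± 0.19 and 10.15 ± 0.16 (SD, n = 4 each), both with no overlap.

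Stat3, which carries interleukin 6, 10 and 21 signals, was the steadiest member. It read 8.46, 8.50, 8.44 and 8.52 on TCL1 arrays a to d and 8.57, 8.60, 8.52 and 8.61 on ROR1xTCL1 arrays a to d. In the gene table the whole range over the 8 mice was 0.18 log2 units. The SD within groups of 0.04 was smaller there than that of all but 0.0609% of genes. The lowest ROR1xTCL1 value and the highest TCL1 value were both 8.52. The difference was 0.09 ± 0.09 (SE), with an interval of -0.10 to 0.29, and the exact permutation test gave p = 0.0571. The limma SE is drawn towards the spread of typical genes and exceeds the one Stat3 alone would give. Of its 35 probe sets 30 lay higher on average in ROR1xTCL1, and 7.64% of the 5448 genes were as one-sided or more.

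Stat5a and Stat5b encode closely related proteins and lie side by side with Stat3, and their mean differences had opposite signs. RefSeq (GRCm38.p6) places Stat5b at chr11:100780731-100859004, Stat5a at chr11:100859351-100885169 and Stat3 at chr11:100886806-100939594. Stat5a read 6.73, 6.99, 6.77 and 6.79 on TCL1 arrays a to d and 6.55, 6.80, 6.68 and 6.81 on ROR1xTCL1 arrays a to d, a difference of -0.11 ± 0.11 (SE; interval -0.36 to 0.13). Stat5b read 6.58, 6.37, 6.58 and 6.48 on TCL1 arrays a to d and 6.47, 6.54, 6.77 and 6.72 on ROR1xTCL1 arrays a to d, a difference of 0.12 ± 0.11 (SE; interval -0.13 to 0.37). The groups overlapped for both, and their spread within groups (0.12 and 0.13) lay under that of most genes (median 0.22). Probes can hybridise across such close copies, and how far they did here was not tested. With gene values averaged from probe sets, Stat5a differed by -0.11 ± 0.12 and Stat5b by -0.02 ± 0.14 (SE), so the sign of the Stat5b difference depended on how probe sets were combined.

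Pim1, the survival kinase switched on by STAT3 and STAT5, varied between mice of both groups alike. It read 9.08, 8.94, 9.71 and 9.63 on TCL1 arrays a to d and 9.89, 9.35, 8.96 and 9.57 on ROR1xTCL1 arrays a to d. The lowest values, 8.94 and 8.96, came from 1 mouse of each group, and the groups overlapped over almost their whole range. The means of 9.34 ± 0.39 and 9.44 ± 0.39 (SD, n = 4 each) differed by 0.10 ± 0.24 (SE), with an interval of -0.44 to 0.65. TCL1 arrays a and b, high in Socs2 and Cish, were among the 3 lowest in Pim1.

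**Figure D3:**
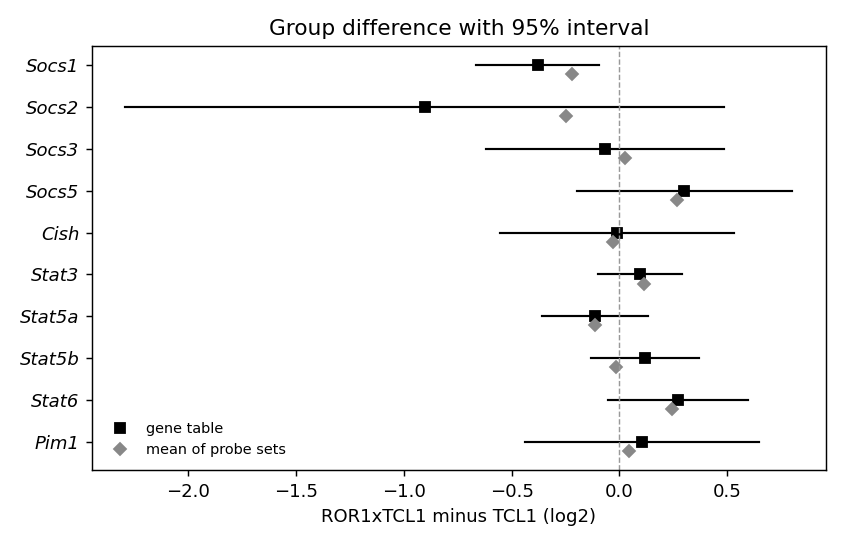
Difference ROR1xTCL1 minus TCL1 in log2 units (x axis) for each member, from the gene table (black squares with the 95% interval of the limma fit) and from the mean of the gene's probe sets (grey diamonds). The interval of Socs1, -0.66 to -0.10, lay below 0 before adjustment, and those of the other 9 members included 0.

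Across the 176 probe sets of the members, 0 passed an adjusted p under 0.05 and 3 stood at an unadjusted p under 0.05 (limma). Among all 1236087 probe sets 3.30% reached the latter, and among the 321091 with 1 gene symbol 2.47%. These 3 were Socs2 probe set 5232477 and Socs5 probe sets 4973786 and 5285927. The groups did not overlap for 6 of the 176, 5 higher and 1 lower in ROR1xTCL1, against 1.97% of all probe sets and 1.57% of those with 1 gene symbol. Of the 6, 2 belonged to Stat3, 2 to Stat6, 1 to Socs5 and 1 to Stat5a.

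**Figure D4:**
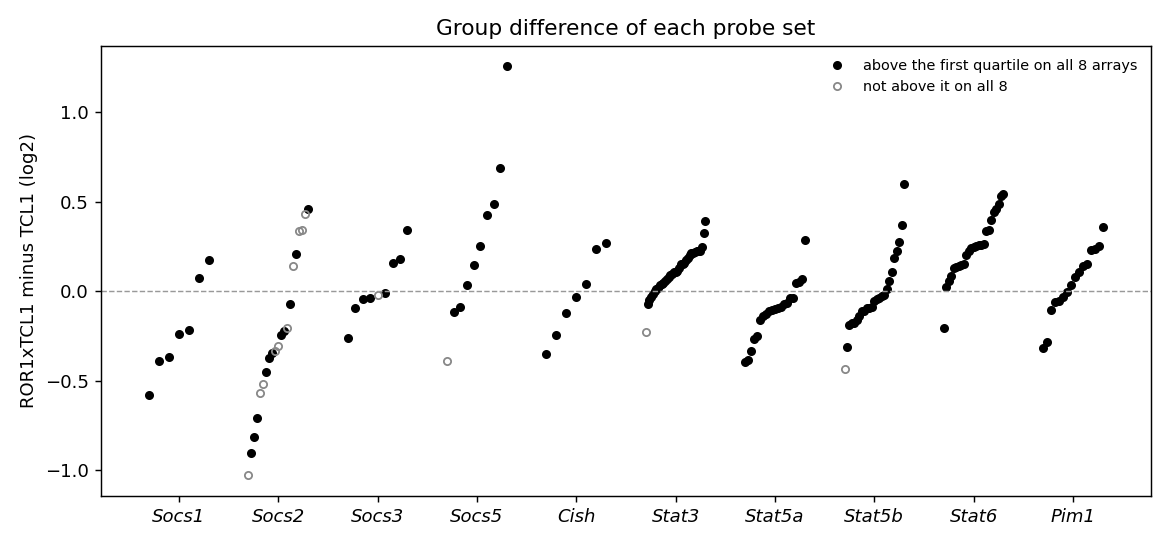
Difference ROR1xTCL1 minus TCL1 in log2 units (y axis) for each of the 176 probe sets of the members, sorted within a gene; filled points lay above the first quartile of all probe sets on all 8 arrays. For Stat6, 24 of 25 points lay above 0, while Socs2 and Socs5 had the widest ranges, from -1.03 to 0.46 and from -0.39 to 1.26.

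The members did not vary as a block. Of the 45 pairs, 19 correlated positively and 26 negatively over the 8 arrays. The median absolute r was 0.27, against 0.31 over all pairs of genes. An unadjusted exact permutation p under 0.05 was reached by 1 pair, Socs2 with Cish, and 0 passed after Benjamini-Hochberg adjustment over the 45 (smallest adjusted p = 0.927). A group of 4 arrays is too small for a correlation of its own.

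Socs1 and Stat3 had the most negative r, -0.68 with a rho of -0.65 (exact permutation p = 0.0718 and 0.0917, adjusted p = 0.927 and 0.898, n = 8). It was -0.38 without the 2 arrays farthest from the Socs1 median and -0.08 once each group was centred on its mean, so the relation followed the group means. For Socs1 and Stat3 values averaged from probe sets, r was -0.25 (adjusted p = 0.987 over the 45 pairs, exact permutation). Socs3 and Stat5b had r = 0.61 and rho = 0.67 (exact permutation p = 0.118 and 0.0757, adjusted p = 0.927 and 0.898, n = 8). This was 0.64 without the 2 farthest arrays, 0.75 on group-centred values and 0.80 with values averaged from probe sets (adjusted p = 0.273 over the 45 pairs, exact permutation). ROR1xTCL1 arrays c and d were high in both genes. The arrays lowest in Socs3, ROR1xTCL1 arrays a and b and TCL1 array d, read 6.47, 6.54 and 6.48 in Stat5b. The lowest Stat5b value, 6.37, was on TCL1 array b, where Socs3 read 5.95.

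**Figure D5:**
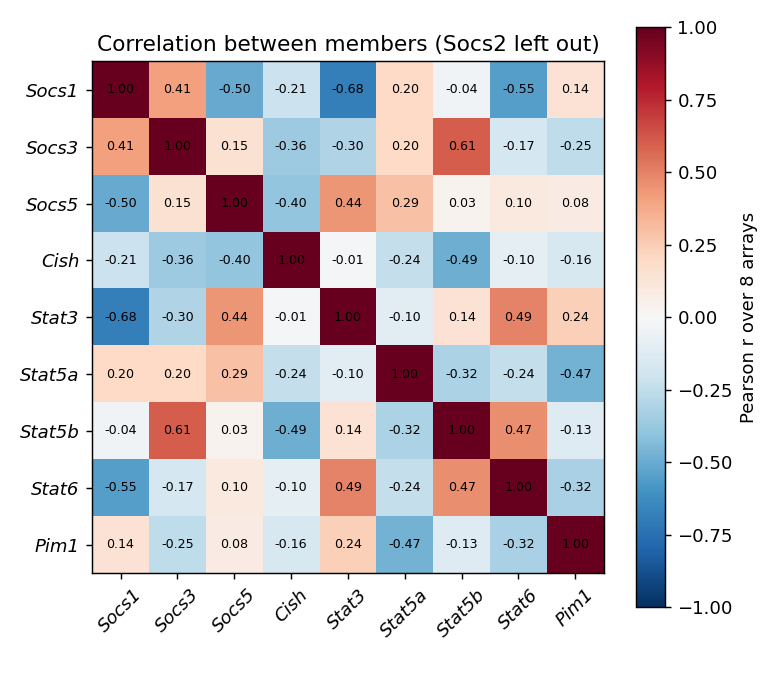
Pearson's r over the 8 arrays between 9 members (both axes), from blue (negative) to red (positive); Socs2 is left out because its values fell into 2 sets. The most negative value was -0.68 for Socs1 with Stat3 and the most positive 0.61 for Socs3 with Stat5b; no pair passed adjustment over the 45 pairs.

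For each member the 3 genes with the highest r over the 8 arrays were taken from 14942 genes. With so many genes and 8 arrays, such values are high by selection, and the r on values averaged from probe sets is given as a second reading of the same RNA. Cish was followed most closely by the DNA damage and stress gene Gadd45a, at r = 0.98 in the gene table and 0.98 on probe set means, by the interleukin 1 receptor gene Il1r1 at 0.97 and 0.88, which was above the first quartile of genes on 1 array, and by the actin monomer binding gene Twf1 at 0.97 and 0.97. Gadd45a read 7.97 and 7.51 on TCL1 arrays a and b, 8.25 on ROR1xTCL1 array a and 5.40 to 6.07 on the other 5. Socs2 was followed by the GTPase-activating protein gene Arhgap31 (0.99 and 0.89) and by Tm2d2 (0.95 and 0.89), both high on TCL1 arrays a and b.

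Socs3 was followed by the kinesin gene Kif20b (0.97 and 0.88), Spin1 (0.95 and 0.81) and Gk5 (0.94 and 0.87). Stat6 was followed by the heat shock protein gene Dnajb1 (0.96 and 0.84), Krtap15 (0.96 and 0.34) and Ate1 (0.95 and 0.76). Stat3 was followed by Psg18 (0.95 and 0.42), Hinfp (0.93 and 0.72) and the chaperonin subunit gene Cct8 (0.93 and 0.92), and Stat5b by the MAP kinase phosphatase gene Dusp7 (0.94 and 0.74), the cohesin factor gene Pds5a (0.94 and 0.74) and Ifi209 (0.94 and 0.41). Pim1 was followed by Ddt (0.96 and 0.84), Slc16a8 (0.93 and 0.72) and Prkcz (0.93 and 0.64). Socs5 was followed by Nags, Angel1 and Mrpl28 (0.92 to 0.95, then 0.004 to 0.39), Stat5a by Col8a1 and Fshr (0.97 each, then 0.12 and 0.15) and Enpp6 (0.95 and 0.78), and Socs1 by Apoa2 (0.91 and 0.79), Nlrp1c-ps (0.90, then -0.23) and Nalcn (0.90 and 0.48). Of the 29 companions with a value on probe set means, 10 had an r under 0.5 there, and they belonged to 6 members. Psg18, Krtap15, Col8a1, Fshr, Nlrp1c-ps and Nalcn lay under the first quartile of genes on all 8 arrays, so their expression above background is not shown.

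The rest of the pathway was read from 9 lists with 86 genes, of which 81 were measured. Of these, 0 rose and 0 fell past the threshold (background 0%), and 1 stood at an unadjusted p under 0.05 (1.23%, against 1.63% of all genes). 36 averaged higher and 45 lower, with a median difference of -0.02 against -0.01 over all genes. The 1 gene was Il21r, the interleukin 21 receptor, which signals through STAT3. It read 7.63, 7.37, 8.39 and 7.91 on TCL1 arrays a to d and 7.56, 7.24, 7.28 and 7.25 on ROR1xTCL1 arrays a to d. The groups overlapped through TCL1 array b and ROR1xTCL1 array a, and the difference of -0.49 ± 0.21 (SE) did not pass adjustment. It was -0.30 without TCL1 array c, and the unadjusted p rose to 0.05 or above in 5 of the 8 fits that left out 1 array.

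Upstream of the members, 11 of 15 measured cytokine ligand genes and 15 of 25 receptor genes averaged lower in ROR1xTCL1, with medians of -0.10 and -0.02, where 54.1% of all genes did. Whatever their direction, 8 of the 15 ligand genes and 4 of the 25 receptor genes had a mean under the first quartile of genes. Il10, which signals through STAT3 and is made by B-1 type cells, differed by -0.52 ± 0.35, and Ifng, the type II interferon gene, by -0.24 ± 0.25 (SE). Lif, a STAT3 activating cytokine, differed by 0.32 ± 0.16 (SE), but its value was under the first quartile of genes on every array, so expression above background is not shown. The interleukin 7 receptor gene Il7r differed by 0.69 ± 0.60 and Il2ra by -0.56 ± 0.57 (SE). Leaving out 1 array gave 0.26 (TCL1 array d) to 1.11 (TCL1 array a) for Il7r and -0.94 (TCL1 array d) to -0.08 (TCL1 array b) for Il2ra. Among the kinases, Jak1, Jak2, Jak3 and Tyk2 differed by 0.09 ± 0.14, -0.08 ± 0.27, -0.02 ± 0.24 and 0.05 ± 0.15 (SE).

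Of the other STAT factors, Stat2 and Stat4 also overlapped between the groups. Stat2 differed by 0.14 ± 0.13 and Stat4 by 0.13 ± 0.46 (SE), and Stat4 ranged from 5.90 to 8.09 within ROR1xTCL1 alone. Socs4, Socs6 and Socs7 differed by -0.01 ± 0.14, 0.16 ± 0.25 and -0.08 ± 0.12, and the kinases Pim2 and Pim3 by -0.27 ± 0.29 and -0.002 ± 0.18 (SE). Of the proteins that join the SOCS box to its ubiquitin ligase, the elongin genes Eloc and Elob differed by 0.03 ± 0.10 and -0.16 ± 0.54, the scaffold gene Cul5 by 0.02 ± 0.15, and the ring finger genes Rnf7 and Rbx1 by -0.32 ± 0.37 and 0.27 ± 0.15 (SE). Of 10 other JAK-STAT inhibitors 6 averaged higher, with Sh2b3 at 0.14 ± 0.22 and the phosphatase genes Ptpn2 and Ptpn6 at -0.13 ± 0.18 and -0.13 ± 0.13 (SE). Of 14 other STAT target genes 8 averaged higher, with Bcl6, the germinal centre repressor, at 0.45 ± 0.22, the IgE receptor gene Fcer2a at 0.42 ± 0.33 and the survival gene Mcl1 at 0.20 ± 0.17 (SE). None of these groups had a member past the threshold or with groups that did not overlap.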

How the data were processed

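The authors deposited 2 tables of the same 8 arrays. In the probe set table (1236087 probe sets) the values are log2 RMA values made with the Bioconductor package oligo, per the labels; the submitters' processing notes name R 2.15.1. The gene table holds 1 deposited value per gene; its unit is not stated and was taken as log2 from its range (0.89 to 12.64), and how genes were summarised is not stated there. RMA values are relative and are not absolute amounts of RNA.

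Rows without a gene name (4, numbers only) were dropped, and 72 names that recurred were averaged. Differences were fitted with limma 3.58.1 (R 4.3.3; lmFit, eBayes, constant prior, 2-sided) over all 16419 genes, no filter, Benjamini-Hochberg adjustment. The fit was tested on simulated data. Of the probe sets, 321091 had 1 gene symbol. A marker score is the mean log2 value of a list's genes, each centred over the 8 arrays. The number of arrays limits precision. Members and lists were chosen with earlier results of these data known. Named genes are the members, the 3 pathway genes per list with the largest absolute difference (all of lists of 5 or fewer) and the 3 genes most correlated with each member. Some genes that this rule names are not reported here.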

Additional observations from a re-analysis of the deposited data

Results flagged for a closer look

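No member had an array far from the other 3 of its group by Dixon's gap test. Of 78 groups of 4 arrays tested (2 for each member and named pathway gene), 6 had such an array, and chance gives about 1 in 20. Ifng read 6.33 on TCL1 array a and 5.64 to 5.69 on the other 3, on the array with the highest T cell score (0.75) and natural killer cell score (0.58). Il21r read 7.56 on ROR1xTCL1 array a and 7.24 to 7.28 on the other 3, and Jak3 7.64 on ROR1xTCL1 array c against 7.33 to 7.38. Stat2 read 6.07 on ROR1xTCL1 array b against 6.45 to 6.52. On TCL1 array c, Socs4 read 8.80 against 8.41 to 8.46 and Ptpn2 7.23 against 7.86 to 7.94.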

How the results depend on the processing

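0 genes and 0 members passed the threshold under every alternative run. For the members, the differences of Socs1, Socs2, Socs5, Stat3, Stat5a and Stat6 kept their sign under all of them, but leaving out 1 array moved the value by over 1.5 times for 8 of the 10 members (not Socs1 and Stat3) and for all 28 named pathway genes tested so. Using the mean of probe sets turned Socs3 to 0.0238, Stat5b to -0.0176, Jak3 to 0.00999, Pim3 to 0.0487, Rnf7 to 0.244 and Rbx1 to -0.201; the replicate block leaves these means as they are. Using the median of probe sets gave Socs3 0.0518, Cish 0.0538, Stat5b -0.182, Tyk2 -0.00916, Socs4 0.0767, Socs6 -0.0149, Socs7 0.12, Pim3 0.115, Rnf7 0.253 and Rbx1 -0.275. Centring arrays on their medians gave Cish 0.002, Socs4 0.00075 and Pim3 0.011, and quantile normalization Pim3 0.0122. The cause was not tested. Leaving out 1 array at a time, the sign also turned for these, with ranges of -0.231 to 0.0673 for Socs3, -0.185 to 0.139 for Cish, -0.0452 to 0.265 for Pim1, -0.307 to 0.117 for Jak2, -0.158 to 0.234 for Jak3, -0.0207 to 0.154 for Tyk2, -0.282 to 0.445 for Stat4, -0.0874 to 0.0808 for Socs4, -0.0607 to 0.316 for Socs6, -0.114 to 0.0979 for Pim3, -0.0122 to 0.0775 for Eloc, -0.591 to 0.228 for Elob, -0.083 to 0.118 for Cul5, -0.549 to 0.0205 for Rnf7 and -0.0622 to 0.247 for Sh2b3. Leaving out TCL1 array a and ROR1xTCL1 array a together, chosen after seeing the data for their neutrophil and erythroid scores, gave Socs3 0.088 and Pim1 -0.133.

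The 1 pair of members at an unadjusted p under 0.05 became 2 on group-centred values, 2 with means of probe sets and 2 by Spearman's rho, and 0 to 2 without 1 array. The 3 probe sets at an unadjusted p under 0.05 became 5 with the replicate block and 2 to 5 without 1 sample. Same-numbered samples did not all deviate together (r of -0.006 to 0.23), so the block pairs numbers only. Dim probe sets and 4 arrays per group limit what can be seen.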
